A study of Mus musculus with 4 samples.

Results

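The genes described here encode 4 surface receptors of T cells that share the scavenger receptor cysteine-rich (SRCR) domain: Cd163l1 (also called Scart1), 5830411N06Rik (also called Scart2), Cd5 and Cd6. Their accessible chromatin was read from peak lists of fetal mouse γδ thymocytes, made by ATAC-seq, an assay that inserts adapters into open DNA with a transposase. Peaks of the 4 libraries that overlapped by at least 1 bp were merged into regions on the autosomes and X. A region belonged to one of these genes when that gene had the nearest protein-coding gene body within 100 kb. This gave 72 of 171490 regions, of which 18 belonged to Cd163l1, 14 to 5830411N06Rik, 15 to Cd5 and 25 to Cd6. The farthest lay 24.4 kb from its gene, and 44 of the 72 overlapped the gene body.

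The study examined what deleting Maf, which encodes the bZIP factor c-Maf, does to open chromatin in immature γδ thymocytes on the path to IL-17 production. There were 2 KO libraries, from Maf fl/fl Il7r-Cre fetuses, and 2 WT libraries, from Maf+/+ Il7r-Cre fetuses, so both genotypes carried the Cre and the KO alone carried the floxed Maf alleles. The Cre is driven by Il7r, so the deletion was conditional, and which other cells of a KO fetus keep Maf is not given. Fetuses were taken at embryonic day 17 to 18 on a C57Bl/6 background (N5 backcross), and thymocytes from pooled fetuses were sorted as CD4-, CD8-, CD3e+, TCRgd+, CD24+ and CD45RBlo. Nothing in the labels tells whether replicates were drawn from different pools of fetuses, so p-values measure the spread between these libraries, which may be technical.

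SRCR domains are compact folds held by disulphide bonds, and many proteins that carry them bind other proteins or microbial surfaces. CD5 sits beside the T cell receptor and dampens its signal, and its level on thymocytes follows the strength of that signal. CD6 binds ALCAM and CD318 (the product of Cdcp1) on other cells and docks signalling adaptors such as SLP-76. The Scart receptors are known in the mouse mainly from γδ T cells, where each marks a different subset of IL-17-producing cells.

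The targeted gene, Maf, had 1 peak inside its gene body in each KO library, with a −log10 q of 3.17 in KO 1 and 3.06 in KO 2, against 2 peaks in WT 1 and 1 in WT 2, with a highest −log10 q of 15.0 and 15.9. The highest fold enrichment over local background differed less: 4.26 in KO 1, 4.15 in KO 2, 5.85 in WT 1 and 4.47 in WT 2. Covered bases overlapped between genotypes, at 197 and 123 bp in KO and 188 and 154 bp in WT. Whether these peaks lie in the floxed part is not given, so they check the labels only loosely. The libraries differed in the number of peaks called, with 130935 in KO 1, 120141 in KO 2, 102718 in WT 1 and 132179 in WT 2. WT 1 had the fewest, and its peaks covered 20.6 Mb, against 25.8 to 29.5 Mb in the other libraries. Of the T cell markers, 9 of 10 were in the gene table and all 9 had a gene-end peak (1 kb or less from either end of the gene) in each of the 4 libraries. Genes of other lineages also had such peaks: 3 of 5 B cell markers and 3 of 6 myeloid markers in every library, and 5 of 7 epithelial and stromal markers in each library except WT 2, which had 6. Over 21631 protein-coding genes, 61.9% (WT 1) to 65.2% (WT 2) had such a peak, so these counts alone do not show cells of those lineages. Of 4 erythroid markers, Klf1 had one in KO 1 alone and Hba-a1 in KO 2 alone, and none of the 4 had one in both KO libraries or in a WT library. The part of these cell types in the results below was not tested.

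The start-site windows of 3 of the genes show what sequence the promoter peaks cover. The RefSeq promoter table of GRCm38.p6 gives 250 bases before and 50 after a start site, printed 5′ to 3′ on the strand of the gene, and it matched 3 of the 4 genes (for 5830411N06Rik, the first of 3 entries). Capitals mark E-boxes (CANNTG) and, in 5830411N06Rik, a ROR core (AGGTCA, found here on the opposite strand). The windows are chr7:140218017-140218316 on the plus strand for Cd163l1, chr7:140247051-140247350 on the plus strand for 5830411N06Rik and chr19:10738925-10739224 on the minus strand for Cd5.
Cd163l1: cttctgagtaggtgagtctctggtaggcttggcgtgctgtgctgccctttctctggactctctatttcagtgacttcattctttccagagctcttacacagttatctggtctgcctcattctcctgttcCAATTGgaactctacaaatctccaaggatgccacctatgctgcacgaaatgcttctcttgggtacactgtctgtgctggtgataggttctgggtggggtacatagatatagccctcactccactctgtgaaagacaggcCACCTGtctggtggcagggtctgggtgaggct
5830411N06Rik: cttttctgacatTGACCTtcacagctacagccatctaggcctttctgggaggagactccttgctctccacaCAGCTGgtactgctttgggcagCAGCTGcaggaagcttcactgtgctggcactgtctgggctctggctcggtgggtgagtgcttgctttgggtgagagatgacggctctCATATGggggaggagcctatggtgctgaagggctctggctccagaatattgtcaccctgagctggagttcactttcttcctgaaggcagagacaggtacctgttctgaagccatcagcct
Cd5: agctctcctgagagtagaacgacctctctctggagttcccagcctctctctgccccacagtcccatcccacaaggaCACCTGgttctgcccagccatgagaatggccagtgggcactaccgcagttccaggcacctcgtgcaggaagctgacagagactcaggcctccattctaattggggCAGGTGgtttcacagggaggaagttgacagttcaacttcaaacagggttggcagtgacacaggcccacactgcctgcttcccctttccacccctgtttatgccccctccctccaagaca
Short motifs were searched on both strands. The Maf recognition element (MARE, which is the AP-1 letters with TGC before and GCA after), its shorter form (TGCTGAC) and the AP-1 motif (TGANTCA) were in none of the 3 windows. Over 26794 promoter windows of the same length, 0.00746% held the MARE, 4.64% the shorter form and 7.95% the AP-1 motif. E-boxes, read by basic helix-loop-helix factors, numbered 2 in Cd163l1, 3 in 5830411N06Rik and 2 in Cd5, and 72.3% of all windows held at least 1. The ROR core, the letters read by RORγt and its relatives, occurred once, in 5830411N06Rik, and in 16.2% of all windows. The ETS core (GGAA), in 95.9% of all windows, occurred 3 times in Cd163l1, 2 times in 5830411N06Rik and 6 times in Cd5. A match is a run of letters and not a measured binding site.

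Most regions at these receptor genes were called in both genotypes, as were most regions over the genome. Of the 72 regions, 36 (50%) were called in all 4 libraries, against 45.9% over the genome, and 13 more (18.1%) were called in 3 libraries, against 12.3%. None was called in KO 1 and KO 2 but in no WT library (0 of 72, against 3.10% over the genome). One region was called in WT 1 and WT 2 but in no KO library (1.39%, against 2.07%). Both counts rest on at most 1 region. Another 4 regions (5.56%, against 8.15%) were called in 1 KO and 1 WT library, and 18 (25%, against 28.6%) in a single library. With 2 libraries in each genotype there are 3 ways to split the 4 libraries into pairs, so the smallest exact p for any one region is 0.333 and no count of calls was tested.

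**Figure D1:**
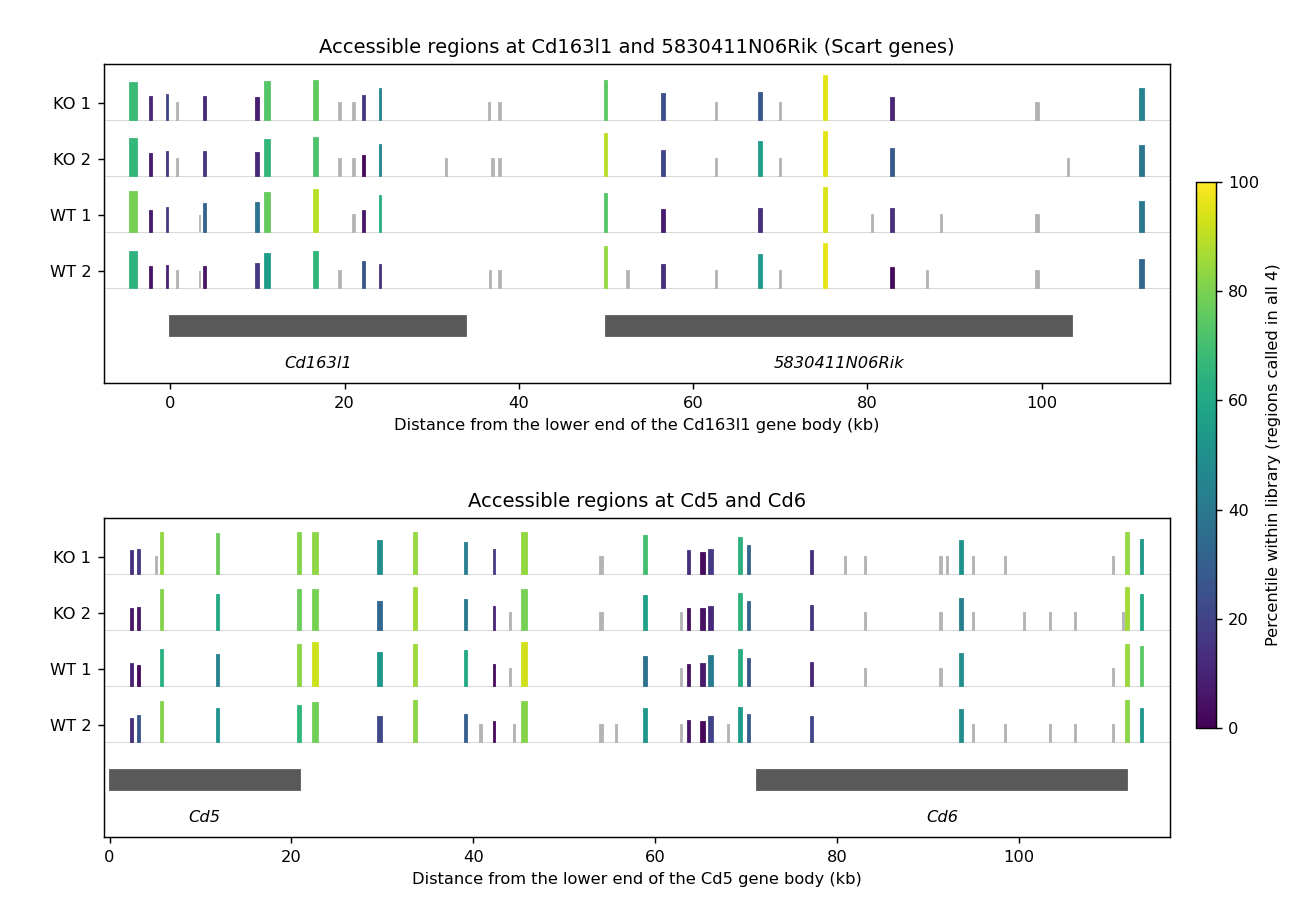
Position of every region at the 4 genes (horizontal axis, kb from the lower end of the first gene body) in each library (rows, KO above WT). Bars are drawn at the width of the merged region with a thin outline, colour and height give the percentile of fold enrichment within the library for regions called in all 4 libraries, grey bars are regions called in fewer, and dark boxes are gene bodies; a merged region has 1 position in all rows, so the rows differ in which regions were called and in colour and height.

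**Figure D2:**
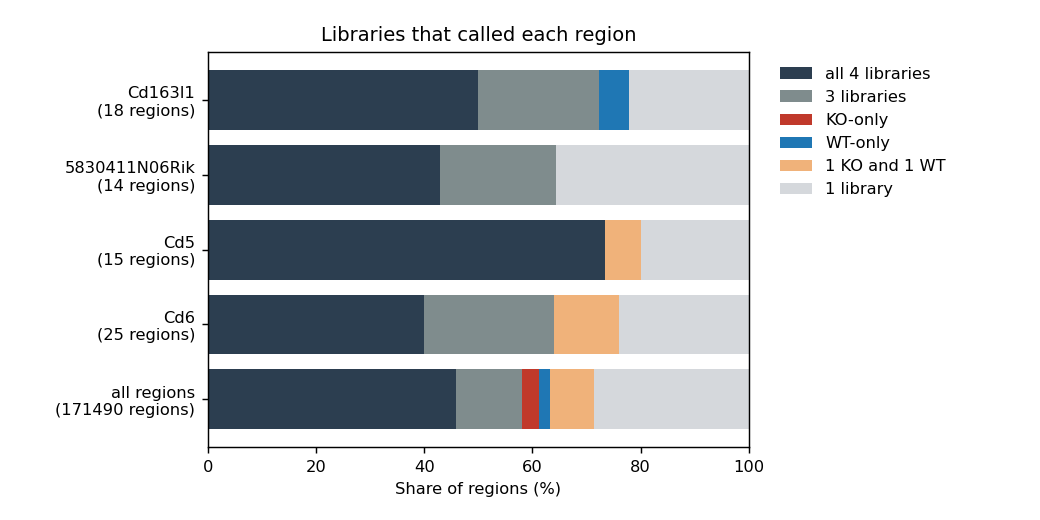
Share of regions (horizontal axis, %) by the libraries that called them, for each gene and for all 171490 regions. Cd5 had the highest share called in all 4 libraries among these genes, 73.3%, against 45.9% of all regions. The KO-only class is empty at all 4 genes, against 3.10% of all regions.

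The map of the 2 loci shows which merged regions each library called, and the bars of call patterns give the counts. Among the 13 regions called in 3 libraries, WT 1 was the library without a call in 7, or 9.72% of the 72 regions. It was WT 2 in 3 (4.17% of the 72), KO 2 in 2 (2.78%) and KO 1 in 1 (1.39%). Over the genome, 7.58% of all 171490 regions were missing from WT 1 alone, 0.907% from WT 2 alone, 1.85% from KO 2 alone and 1.93% from KO 1 alone. WT 1 is also the library with the fewest peaks.

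Cd163l1 encodes the Scart1 receptor and lies at chr7:140197218-140231145. Of its 18 regions, 9 were called in all 4 libraries, 4 in 3, 1 in WT alone and 4 in a single library. The start site in the promoter table lies 21.0 kb inside the gene body, which extends further upstream, so the window printed above is not at the end of the annotated gene. The region at this start site, chr7:140218204-140218376, was low: the authors' fold enrichment over local background was 5.27 in KO 1, 4.47 in KO 2 and 4.34 in WT 1, and no peak was called there in WT 2. The −log10 q was 10.3 in KO 1, 6.97 in KO 2 and 5.97 in WT 1, so the call was present in both KO libraries and 1 WT library. The summit was 30 bases downstream of the start site in KO 1, and 4 and 17 bases upstream in KO 2 and WT 1. This region overlapped 113 of the 300 bases printed above for Cd163l1, among them the capitals at the downstream end.

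The WT-only region of Cd163l1 lay inside the gene at chr7:140200580-140200678. It was a weak call: the fold was 3.02 in WT 1 and 2.35 in WT 2, the −log10 q was 2.14 and 1.31, and the peaks covered 99 and 85 bp. Both deposited WT lists end at a −log10 q of about 1, so the WT 2 call lay close to that limit. The call was lost when peaks needed a −log10 q of at least 5 and when all libraries were given equal numbers of peaks. The gene body also encloses Olfr524, an olfactory receptor gene, to which 2 further regions were assigned because its body is shorter. One of these, chr7:140203633-140203747, was KO-only, with folds of 2.77 in KO 1 and 2.95 in KO 2. Given to Cd163l1 instead, it makes 1 KO-only region at these genes beside 1 WT-only region.

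The strength of the shared regions was compared as the percentile of the fold enrichment within each library, over the 78650 regions called in all 4, with 100 the tallest. At Cd163l1 the tallest was chr7:140213727-140214190, at 75.7 in KO 1, 71.8 in KO 2, 89.2 in WT 1 and 65.7 in WT 2. The genotypes overlapped, and WT 1 alone stood high. A second tall region, chr7:140208118-140208610, was at 73.7 and 66.1 in KO 1 and KO 2 and at 76.2 and 55.1 in WT 1 and WT 2. The third, chr7:140192619-140193405, was 3.81 kb below the gene, at 67.7 and 66.5 in KO and 79.3 and 64.5 in WT. Its KO values fell within the WT range, as they did for the second. The largest non-overlapping difference at Cd163l1 was inside the gene at chr7:140207010-140207438, at 7.57 and 11.3 in KO and 38.6 and 16.5 in WT. The mean was 9.43 ± 2.63 in KO and 27.6 ± 15.6 in WT (SD, n = 2 each), and this did not pass limma's test (difference of normal scores −0.69, SE 0.30, adjusted p = 0.590). Most of the gap came from WT 1, at 38.6. With regions merged and ranked again after a library was left out, the difference was −10.4 points without WT 1 and −29.6 without WT 2. Near the lower end of the gene, chr7:140196806-140196980 was at 21.0 and 15.7 in KO and at 17.6 and 9.54 in WT. Just inside it, chr7:140197971-140198131 was called in every library except WT 1. A low region 2.08 kb outside the gene, chr7:140194951-140195137, was at 11.0 and 7.66 in KO and 6.84 and 5.32 in WT (limma adjusted p = 0.903).

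5830411N06Rik encodes the Scart2 receptor and lies 16.1 kb from Cd163l1, at chr7:140247279-140300734. Of its 14 regions, 6 were called in all 4 libraries, 3 in 3 and 5 in a single library. Its start-site region, chr7:140247083-140247362, was open in every library, at the 74.5 and 89.1 percentile in KO 1 and KO 2 and the 73.3 and 84.2 percentile in WT 1 and WT 2. The groups overlapped, and replicate 2 was the higher in each genotype. Summits fell 118 and 101 bases upstream of the start site in KO, and 101 and 89 in WT. The region overlapped 268 of the 300 bases printed above.

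The tallest peak of the 4 genes was inside 5830411N06Rik, 25.1 kb downstream of the start site at chr7:140272235-140272585. It was at 95.6 and 95.4 in KO and at 94.5 and 96.5 in WT, a difference of means of 0.0203 percentile points (95.5 ± 0.188 in KO, 95.5 ± 1.41 in WT, SD, n = 2 each; limma adjusted p = 0.999). The largest non-overlapping difference was at chr7:140253708-140254020, 6.56 kb downstream of the start site, at 24.7 and 21.5 in KO and 8.19 and 13.7 in WT. It did not pass the test (limma adjusted p = 0.649). A region 7.78 kb past the gene, chr7:140308515-140308944, was wider in KO: peaks covered 342 and 396 bp in KO, against 165 and 177 bp in WT. The 4 values did not overlap between genotypes. The log2 width difference was 1.06 (SE 0.20), with an unadjusted p of 0.00129 and an adjusted p of 0.442 in limma's fit over all shared regions.

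Cd5 encodes the dampener of T cell receptor signals described above and lies at chr19:10718107-10739026. It had the highest share of shared regions of the 4 genes, with 11 of 15 called in all 4 libraries (73.3%, against 45.9% over the genome). Another 1 was called in 1 KO and 1 WT library and 3 in a single library. Its start-site region, chr19:10738841-10739148, was at 81.3 and 77.7 in KO and 82.6 and 65.9 in WT. The KO values lay within the WT range, and summits lay 6 and 2 bases upstream of the start site in KO and 8 and 6 in WT. The region overlapped 224 of the 300 bases printed above. The tallest regions of Cd5 lay outside the gene, between it and Cd6. At 1.51 kb, chr19:10740537-10740987 was at 83.0 and 79.4 in KO and 92.4 and 78.2 in WT. At 12.6 kb, chr19:10751606-10751964 was at 84.1 and 85.7 in KO and 85.0 and 82.8 in WT. At 24.4 kb, chr19:10763436-10764030 was at 84.0 and 79.2 in KO and 92.7 and 81.5 in WT. In none of these 3 did the genotypes separate.

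Inside Cd5, chr19:10729891-10730178 was higher in both KO libraries, at 77.4 and 60.8, against 44.0 and 51.3 in WT. The mean was 69.1 ± 11.7 in KO and 47.6 ± 5.15 in WT (SD, n = 2 each), a difference of 21.5 points that did not pass the test (limma adjusted p = 0.632). With regions merged and ranked again, the difference was 12.9 points without KO 1 and 28.7 without KO 2. A second region of Cd5, chr19:10723727-10723994, was at 83.2 and 81.6 in KO and 63.4 and 81.4 in WT, so WT 1 made nearly all of the gap. The one member region with an unadjusted rank p under 0.05 was low in every library: chr19:10760348-10760507, 21.3 kb outside Cd5, was at 17.3 and 10.5 in KO and 2.84 and 2.24 in WT. Its normal score was 0.86 higher in KO (SE 0.24, unadjusted p = 0.00985, limma adjusted p = 0.407).

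Cd6 encodes the ALCAM receptor and lies 50.3 kb from Cd5, at chr19:10789339-10830062. Of its 25 regions, 10 were called in all 4 libraries, 6 in 3, 3 in 1 KO and 1 WT library and 6 in a single library. The space between Cd5 and Cd6 held 19 regions, 12 of them called in all 4 libraries, of which 6 were nearer to each gene. The tallest region of Cd6 lay at the upper end of the gene, chr19:10829879-10830188, at 83.7 and 85.8 in KO and 84.8 and 82.4 in WT. The genotypes overlapped there. A region 1.48 kb above the gene body, chr19:10831540-10831744, was at 54.1 and 60.2 in KO and 74.5 and 53.2 in WT. Below the lower end, chr19:10787383-10787689 was at 63.9 and 64.5 in KO and 62.4 and 54.8 in WT, and chr19:10788334-10788570 was at 31.7 and 31.9 in KO and 26.5 and 28.3 in WT. Both pairs separated by a few points, and neither passed the test (limma adjusted p = 0.950 and 0.960).

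The larger separations at Cd6 ran in both directions. Between the genes, chr19:10776922-10777183 was at 69.8 and 57.3 in KO and 37.3 and 52.9 in WT (limma adjusted p = 0.716). Nearer Cd6, chr19:10784050-10784487 was at 17.2 and 11.6 in KO and 41.7 and 19.6 in WT (limma adjusted p = 0.711). In both, WT 1 lay farthest from the KO values. With all libraries, over 78650 shared regions, the differences were 18.5 and −16.2 points. Merged and ranked again without WT 1, over 91764 shared regions, they were 9.17 and −7.62 points. The width of chr19:10781776-10781936 was greater in both KO libraries than in either WT library, with a log2 difference of 0.60 (SE 0.21, unadjusted p = 0.0253, limma adjusted p = 0.660).

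**Figure D3:**
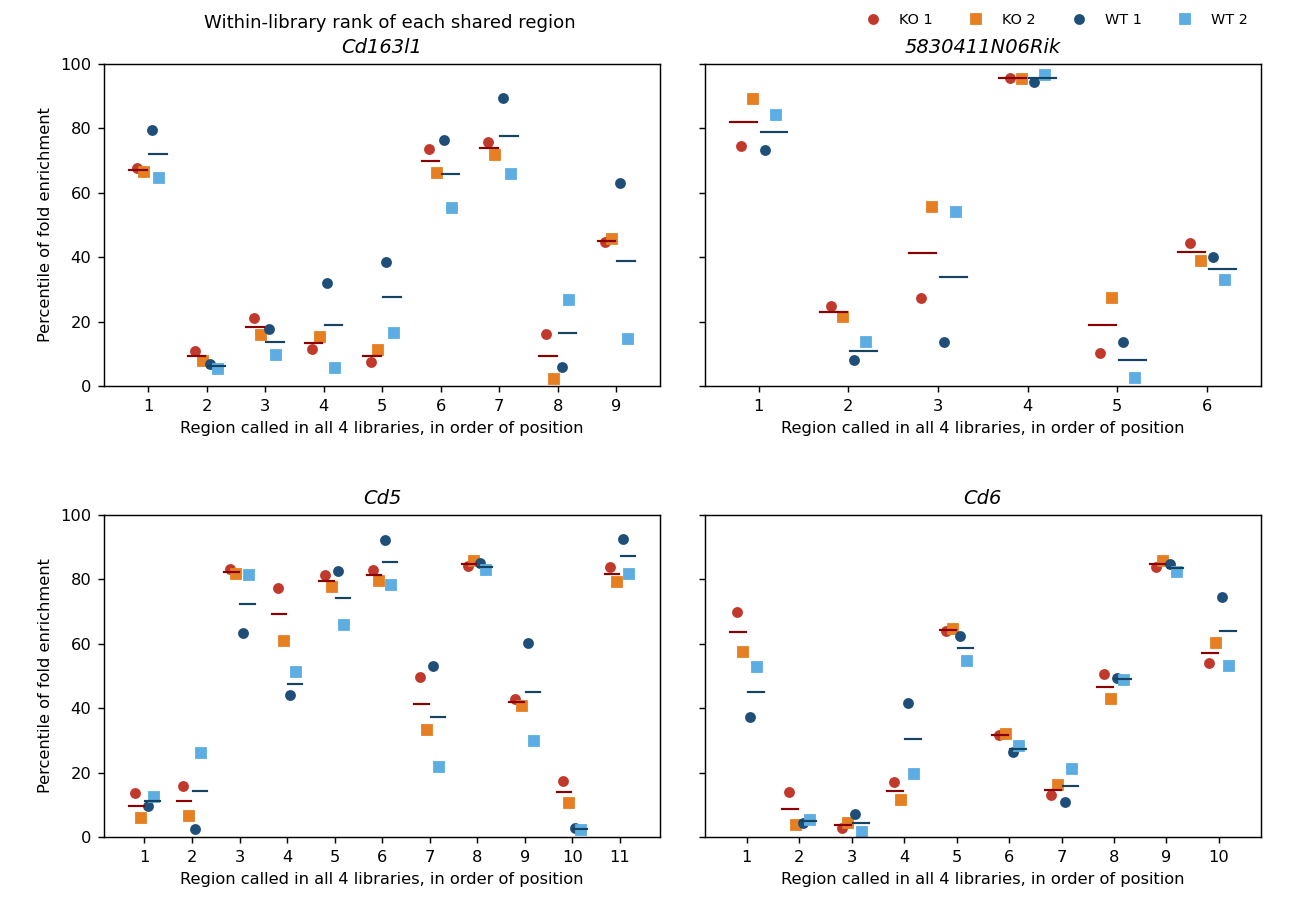
Percentile of fold enrichment within each library (vertical axis, 0 to 100) for every region called in all 4 libraries, in order of position, one panel per gene. Points are libraries, KO left of WT, and short lines are genotype means of 2 libraries; the tallest region of 5830411N06Rik sits between 94.5 and 96.5 in all 4 libraries.

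Across the 36 shared regions of the 4 genes, 0 passed an adjusted p of 0.05 for rank in limma's fit, against 0.00% of 78650 regions over the genome. At an unadjusted p under 0.05 the count was 1 of 36 (2.78%, against 8.58%). KO lay above WT with no overlap in 8 regions (22.2%, against 18.6%) and below it in 2 (5.56%, against 18.1%). For width, 0 of 36 passed the adjusted threshold (0.00% over the genome) and 2 passed the unadjusted one (5.56%, against 6.66%). With widths centred on each library's median, KO peaks were the wider with no overlap in 11 regions (30.6%, against 16.6%) and the narrower in 10 (27.8%, against 16.6%). In covered bp as deposited, without centring, they were the wider in 6 (16.7%, against 17.2%) and the narrower in 4 (11.1%, against 12.5%). These counts describe the members and were not tested as a group. The plot of percentiles shows how far the 2 libraries of a genotype lie apart in the same region.

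**Figure D4:**
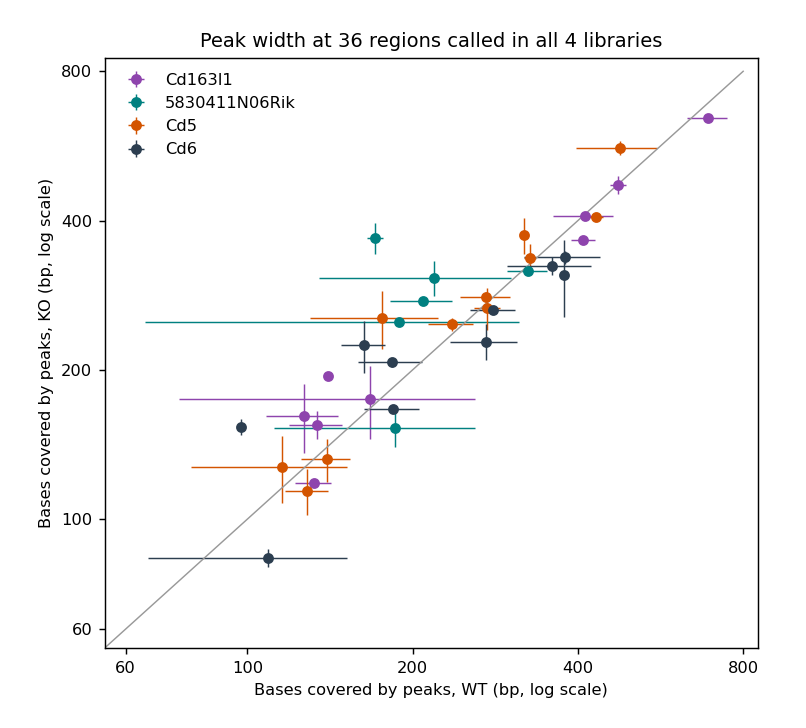
Bases of each shared region covered by peaks, mean of the 2 KO libraries (vertical axis, bp, log scale) against mean of the 2 WT libraries (horizontal axis, bp, log scale). Bars span the 2 libraries of a genotype and the line marks equal width; the 5830411N06Rik region with 342 and 396 bp in KO and 165 and 177 bp in WT lies farthest above the line.

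The plot of widths places most regions near the line of equal width. The spread of the 4 summits in a shared region had a median of 42.5 bp over the 36 regions, against 41 bp over all shared regions, and was within 100 bp in 34 of 36 (94.4%, against 90.9%). The widest spread, 235 bp, was at Cd6.

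Taken per gene, the median percentile of the shared regions ordered the genes as Cd5, Cd6, 5830411N06Rik and Cd163l1, from high to low, by the mean over the 4 libraries. Cd5 was at 77.4 and 60.8 in KO and 60.2 and 51.3 in WT. Cd6 was at 41.2 and 37.3 in KO and 39.5 and 38.5 in WT. The median for 5830411N06Rik was 35.8 and 47.1 in KO and 26.8 and 43.4 in WT, so its range includes that of Cd6 and these neighbours in the order do not differ beyond their spread. Cd163l1 was at 21.0 and 15.7 in KO and 38.6 and 16.5 in WT, and its WT 1 value reaches into the range of 5830411N06Rik. Among 5209 genes with at least 5 shared regions, 84.7% stood at or below Cd5, 27.5% at or below Cd6, 25.0% at or below 5830411N06Rik and 2.82% at or below Cd163l1. The median difference between KO and WT over a gene's regions was −3.71 percentile points at Cd163l1, 6.34 at 5830411N06Rik, 1.02 at Cd5 and 0.24 at Cd6, against −0.0456 over all shared regions. When 1 library was left out, regions were merged and ranked again over those shared by the remaining libraries. The 4 genes then had 37 (without KO 1) to 44 (without WT 1) shared regions, against 36 with all libraries. A shift can therefore come from the changed set of regions as well as from the missing library. The sign of the median difference turned at 3 of the genes. Its range was −9.29 (without WT 2) to 4.27 (without WT 1) at Cd163l1. It was −0.34 (without WT 1) to 10.7 (without KO 1) at 5830411N06Rik and −3.68 (without KO 1) to 2.98 (without KO 2) at Cd5. At Cd163l1 it was also above 0 without KO 2 (0.46), and at Cd5 below 0 without WT 2 (−0.0628).

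Bases covered by peaks, scaled to all covered bases of each library (bp per Mb covered), gave small differences within each gene. Cd163l1 had 127 and 137 in KO and 134 and 121 in WT. The value for 5830411N06Rik was 86.8 and 76.1 in KO and 69.0 and 76.3 in WT. Cd5 had 124 and 121 in KO and 134 and 116 in WT, and Cd6 had 126 and 131 in KO and 122 and 128 in WT. In all 4 genes the genotypes overlapped.

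Genes of like pattern were found by the distance of their median percentiles over the 4 libraries, among the same 5209 genes. Nearest to Cd163l1 were Tbc1d10a (4.78 percentile points), Rnf149 (5.42) and Rrp12 (6.36). Nearest to 5830411N06Rik were Ltbp2 (2.47), Pax7 (3.0) and Trappc9 (3.20). Nearest to Cd5 were Phtf2 (4.41), Scn3a (7.51) and Araf (8.51), and nearest to Cd6 were Epcam (2.17), Haao (2.44) and Rassf4 (2.67). The measure uses 4 values per gene, which share the library differences of all regions.

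The 17 ligands and signalling partners of CD5 and CD6 were counted in the same way. They held 319 regions. All 4 libraries called 171 of them (53.6%, against 45.9% over the genome), while 11 were KO-only (3.45%, against 3.10%) and 11 were WT-only (3.45%, against 2.07%). KO-only regions lay at Cblb (4 of 50 regions), Csk (2 of 15), Fyn (2 of 76), Ubash3a (2 of 14) and Cdcp1 (1 of 7). Their −log10 q ran from 1.43 (Cblb, KO 1) to 7.99 (Csk, KO 1). Cblb encodes a ubiquitin ligase that restrains T cell activation, and Csk a kinase that inhibits LCK. WT-only regions lay at Fyn (3 of 76), Cblb (2 of 50), Vav1 (2 of 23), Cdcp1 (1 of 7), Grb2 (1 of 23), Lck (1 of 8) and Lcp2 (1 of 37), the last of which encodes SLP-76. Their −log10 q ran from 1.68 (Vav1, WT 1) to 18.6 (Cblb, WT 2). Cblb, Fyn and Cdcp1 thus had regions of both kinds. Gene-end peaks were present for 16 of the 17 genes in each KO library, and for 15 in WT 1 and 16 in WT 2. Over all protein-coding genes the share was 61.9% (WT 1) to 65.2% (WT 2).

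The 13 other SRCR genes held 90 regions, and all 4 libraries called 36 of them (40%, against 45.9% over the genome). Of the 90, 4 were KO-only (4.44%, against 3.10%), at Dmbt1, Loxl3, Loxl4 and Scara5, and 1 was WT-only (1.11%, against 2.07%), at Loxl2. A gene-end peak was present at 8 of the 13 genes in each KO library, and at 5 in WT 1 and 6 in WT 2. Over 21631 protein-coding genes the share with such a peak was 65.1% in KO 1, 64.3% in KO 2, 61.9% in WT 1 and 65.2% in WT 2. Cd163, the macrophage haemoglobin scavenger receptor, had no region in any library. Olfactory receptor genes flank the Scart pair. Olfr522 held 4 regions, Olfr523 held 3, Olfr525 held 6, Olfr527 held 3, Olfr60 held 0 and Olfr530 held 5, none of them KO-only or WT-only. Olfr531 held 3, of which 2 were WT-only, against 2.07% of regions over the genome. Other genes near the 2 loci also held regions of 1 genotype. These were 1 of 1 at Prap1 (KO-only), 1 of 4 at Mtg1 (WT-only) and 1 of 3 at Prpf19 (WT-only).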

How the data were processed

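Open chromatin was measured by Omni-ATAC-seq in 2 KO and 2 WT libraries. The deposited data were 1 narrowPeak list per library, so peaks were called library by library. The submitters' processing notes list MACS2 2.1.1, Bowtie2 2.3.4.1, deepTools 3.1.2, Picard, cutadapt, Trim Galore and bedtools, and the builds mm10 and GRCm38, with no role named. For Tn5 shifting, duplicates and peak settings, the value is not given in the sources used here. In the deposited lists the fold enrichment is a ratio, the summit's signal over nearby background in that library, and the −log10 p and −log10 q are also within-library values. The deposited score repeats the −log10 q. Read depth is unknown, and the number of peaks stands in its place.

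Regions were merged at 1 bp overlap and assigned to RefSeq gene bodies (GRCm38.p6, starts and ends only, so exons are not given). A region that overlapped more than 1 body went to the body that held or lay nearest its midpoint, and on a tie to the shorter body. Percentiles used the highest fold of a region in a library. When a library was left out, regions were merged, assigned and ranked again from the remaining libraries. Normal scores of the ranks, and log2 covered bases centred on the library median, were tested with limma 3.58.1 in R 4.3.3 (eBayes, Benjamini-Hochberg over all 78650 shared regions, adjusted p 0.05), tested on simulated data first. Python 3.11.15 and pandas 2.3.3 did the rest. Single regions are named when called in 1 genotype only, at the start site, within 1 kb of a gene end, among the 3 tallest of a gene, or among its 3 largest non-overlapping differences; the region chr19:10781776-10781936 and the width of chr7:140308515-140308944 were chosen after their values were seen. Genes and lists were chosen with earlier results of these data known.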

Additional observations from a re-analysis of the deposited data

How the results depend on the processing

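No rank difference at the 4 genes passed an adjusted p of 0.05 under any alternative that kept all 4 libraries. None over the genome did either, so this does not set the 4 genes apart from other regions. Beside 0 KO-only regions, 1 was found when peaks had to cover 0.5 of a region, 1 with equal numbers of peaks per library and 1 when overlapping gene bodies went to the member, an alternative chosen after seeing the data. Leaving out each library gave 3 to 7, with 5 without KO 1, 4 without KO 2, 3 without WT 1 and 7 without WT 2. Beside 1 WT-only region, 0 were found at a −log10 q of at least 5 and 0 with equal peak numbers, and leaving out each library gave 2 to 8, with 3 without KO 1, 2 without KO 2, 8 without WT 1 and 3 without WT 2; a genotype left with 1 library needs only 1 call. For width, 1 region passed without KO 2 (0 to 1 over the libraries left out): 5830411N06Rik chr7:140296612-140296960, not called in KO 2, with a log2 difference of 1.48 (SE 0.39, limma adjusted p = 0.0240), in a fit that called 676 regions over the genome and takes the lone KO library to vary as the WT libraries do. With peaks below a −log10 q of 5 left out, the log2 ratio of KO to WT covered bases was −0.0671 at Cd163l1 (0.0459 with all peaks), 0.43 at 5830411N06Rik (0.17) and −0.17 at Cd6 (0.0414). It was 0.11 at Cd6 with widths not centred, and −0.13 to 0.0853 at Cd5 over the libraries left out (the highest without WT 1, and −0.0267 with all). The median rank difference at Cd6 was −1.83 when ranked by −log10 q (0.24 by fold), and 0.13 to 2.87 over the libraries left out (the highest without WT 1). The cause of these shifts was not tested. With 2 pairs, the replicate numbers were not taken to pair the libraries (correlation of replicate differences 0.106 for rank and 0.0571 for width). With the replicate number as a block, 0 regions passed for rank (1 unadjusted, lowest adjusted p 0.328 in limma) and 0 for width (3 unadjusted, lowest adjusted p 0.357 in limma). Peak lists without read depth cannot show whether an uncalled region is closed.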
